A study of Mus musculus with 8 samples.

Results

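The genes described here are Egr1, Egr2, Egr3, Nr4a1, Nr4a2, Nr4a3, Ier2 and Ier3, 8 of the 18193 genes with a value in the series. They were chosen by name as immediate-early genes, and where a gene had several probe sets the brightest on average stands for it, with 9 further probe sets of the same genes kept as a check. The expression arrays measured CD45.1+ blood stem and progenitor cells that carry no transgene, sorted from mouse chimeras 4 weeks after tetracycline was withdrawn. The 4 groups of 2 arrays each were HSC from leukemic mice, HSC from normal mice, KSL from leukemic mice and KSL from normal mice. In leukemic mice, CD45.1+ hosts had received a mixture, in equal numbers, of CD45.1+ marrow and of CD45.2+ marrow with both transgenes, BCR-ABL and SCL-tTA. BCR-ABL is a constitutively active tyrosine kinase that causes chronic myeloid leukaemia. SCL-tTA drives it from a stem and progenitor cell promoter when no tetracycline is given. Normal mice were made in the same way without the BCR-ABL transgene. KSL cells are lineage-negative, Kit+ and Sca-1+, and HSC here are their CD150+ CD48- fraction, the long-term stem cell gate. Hosts and marrow donors of the sorted cells share the CD45.1 allele, so surviving host cells and transplanted cells cannot be told apart. The labels give neither age nor sex, and they do not say whether arrays came from separate animals, so p-values measure the spread between these samples, which may be technical.

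Immediate-early genes are transcribed within minutes of a stimulus without new protein synthesis, through factors such as SRF and CREB that already sit in the nucleus. The EGR proteins are zinc finger transcription factors and the NR4A proteins are orphan nuclear receptors whose activity is set mainly by how much of them is made. In mouse blood stem cells, Egr1 and the Nr4a genes are known for holding cells in quiescence and in the niche, and in mature lymphocytes Egr2, Egr3 and the Nr4a genes are known for their induction by antigen receptor signals. IER2 and IER3 are small proteins of the same early wave, and IER3 is known for acting on cell survival.

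The pattern was uneven over the 8 genes. Nr4a1, Nr4a2 and Egr1 had their lowest values in KSL from leukemic mice, and their levels in HSC from leukemic and from normal mice lay close together. After adjustment over all genes, Nr4a2 was higher in HSC than in KSL in both kinds of mice, and Nr4a1 and Egr1 in leukemic mice. For none of the 8 genes did the difference between leukemic and normal mice pass that adjustment, in HSC or in KSL. Values are log2 expression values, so a difference of 1 is a doubling, and levels of different genes are not compared. Array medians lay between 5.74 and 5.86 and the table had a floor at 3.32, and long-term HSC markers such as Procr were higher in HSC than in KSL for 7 of 7 measured genes in both kinds of mice. Replicate arrays were less alike in HSC, where the median SD between replicates was 0.21 in leukemic and 0.20 in normal mice, than in KSL, where it was 0.09 and 0.11. Replicate 1 of both normal groups had Xist, the RNA of the inactive X chromosome, at 5.79 in HSC and 3.67 in KSL, against 11.6 or more on the other 6 arrays, a male pattern.

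**Figure D1:**
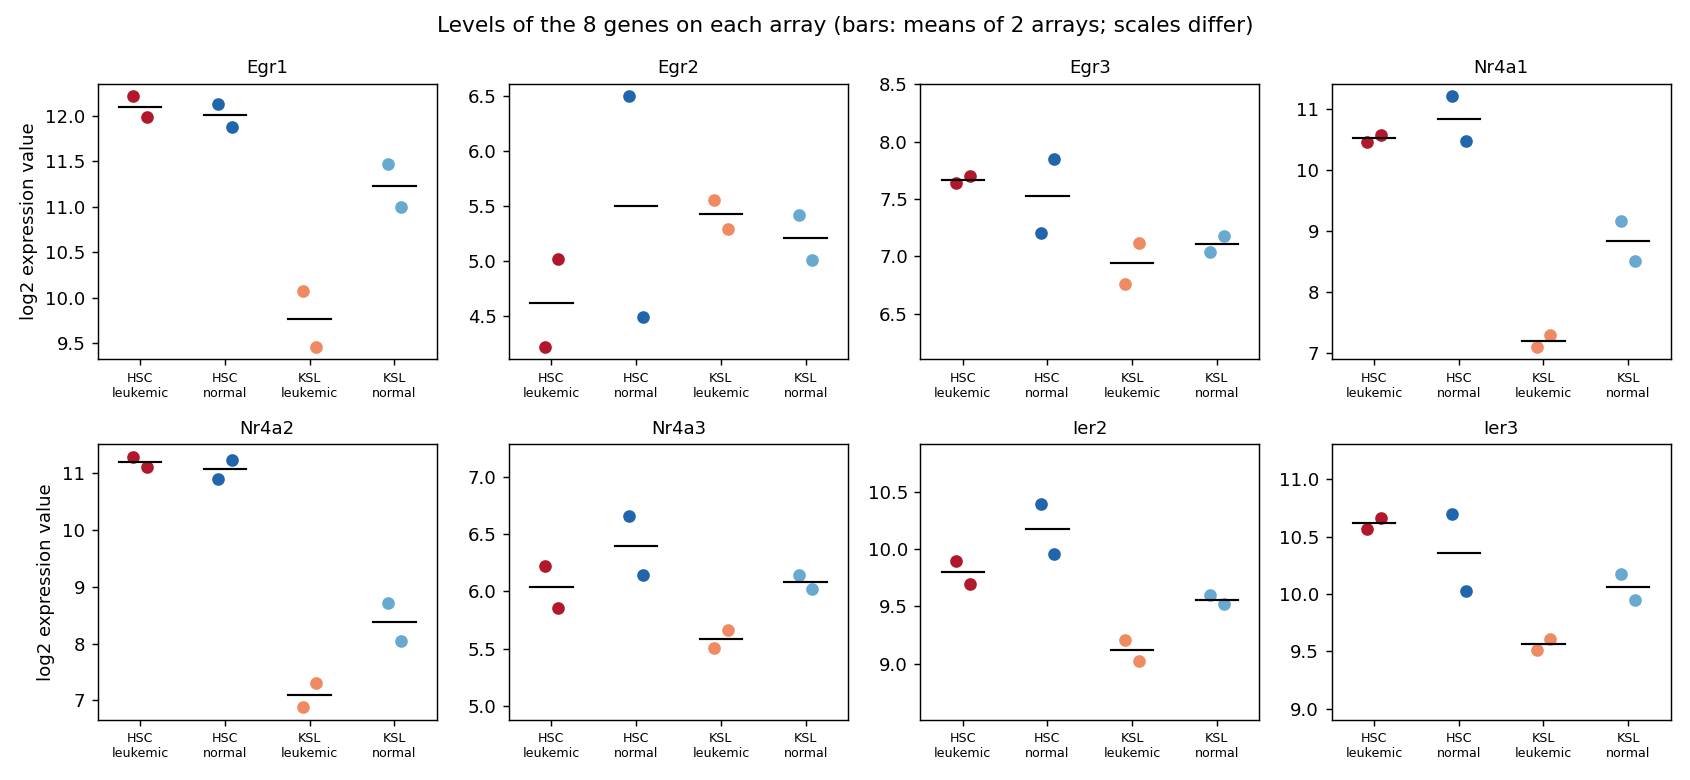
Each panel plots the log2 expression value (y axis, scale set per gene) of 1 gene on each of the 8 arrays, in HSC from leukemic mice, HSC from normal mice, KSL from leukemic mice and KSL from normal mice (x axis); points are arrays and bars are means of 2. Nr4a1, Nr4a2 and Egr1 are highest in both HSC groups and lowest in KSL from leukemic mice, where Egr1 reads 10.07 and 9.46 against 11.46 and 11.0 in KSL from normal mice.

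Nr4a1 encodes NUR77, the founding member of the orphan receptor family. It read 10.46 and 10.57 in HSC from leukemic mice against 11.21 and 10.47 in HSC from normal mice. In KSL it read 7.10 and 7.29 in leukemic mice against 9.15 and 8.51 in normal mice. The HSC arrays overlapped between leukemic and normal mice, while both KSL arrays from leukemic mice lay below both from normal mice, and every KSL array lay below every HSC array. The KSL difference was a log2 fold change of -1.64 ± 0.33 (SE, n = 2 arrays per group; adjusted p = 0.303), rank 41 from the lowest of 18193 genes, and the HSC difference was -0.32 ± 0.33 (adjusted p = 0.748), with a 95% interval of -1.19 to 0.55. HSC exceeded KSL by 3.32 ± 0.33 in leukemic mice (adjusted p = 0.0170), a 9.99-fold difference. In normal mice the difference was 2.01 ± 0.33, which missed the threshold (adjusted p = 0.0745). In the order of group means, the 2 HSC groups are neighbours that did not differ beyond their spread, followed by KSL from normal and KSL from leukemic mice.

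Nr4a2 encodes NURR1, a receptor best known from dopamine neurons. It read 11.29 and 11.12 in HSC from leukemic mice against 10.90 and 11.24 in HSC from normal mice, which overlapped. In KSL it read 6.88 and 7.31 in leukemic mice against 8.71 and 8.05 in normal mice, with no overlap. HSC exceeded KSL by 4.11 ± 0.29 in leukemic mice (adjusted p = 0.0106), a 17.2-fold difference and rank 5 from the highest of all genes. In normal mice HSC exceeded KSL by 2.69 ± 0.29 (adjusted p = 0.0322), a 6.47-fold difference and rank 39 from the highest. Leukemic against normal mice gave -1.28 ± 0.29 in KSL (adjusted p = 0.373) and 0.13 ± 0.29 in HSC (adjusted p = 0.938, 95% interval -0.62 to 0.88).

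Nr4a2 has 6 probe sets on the array, and they did not give 1 size. Besides the brightest, at -1.28 for KSL from leukemic minus normal mice, the next 2 by mean level gave -1.64 and -1.67. The other 3 gave -0.82, -0.31 and -0.12. In HSC, leukemic minus normal mice ran between -0.42 and 0.70 over the 6 probe sets, so their sign was not settled there. HSC minus KSL was positive for 6 of 6 in leukemic mice, between 1.42 and 4.11, and for 6 of 6 in normal mice, between 0.59 and 2.69. With the mean of all 6, HSC minus KSL was 2.65 in leukemic mice (adjusted p = 0.0127) and 1.54 in normal mice, where it no longer passed (0.0545).

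**Figure D2:**
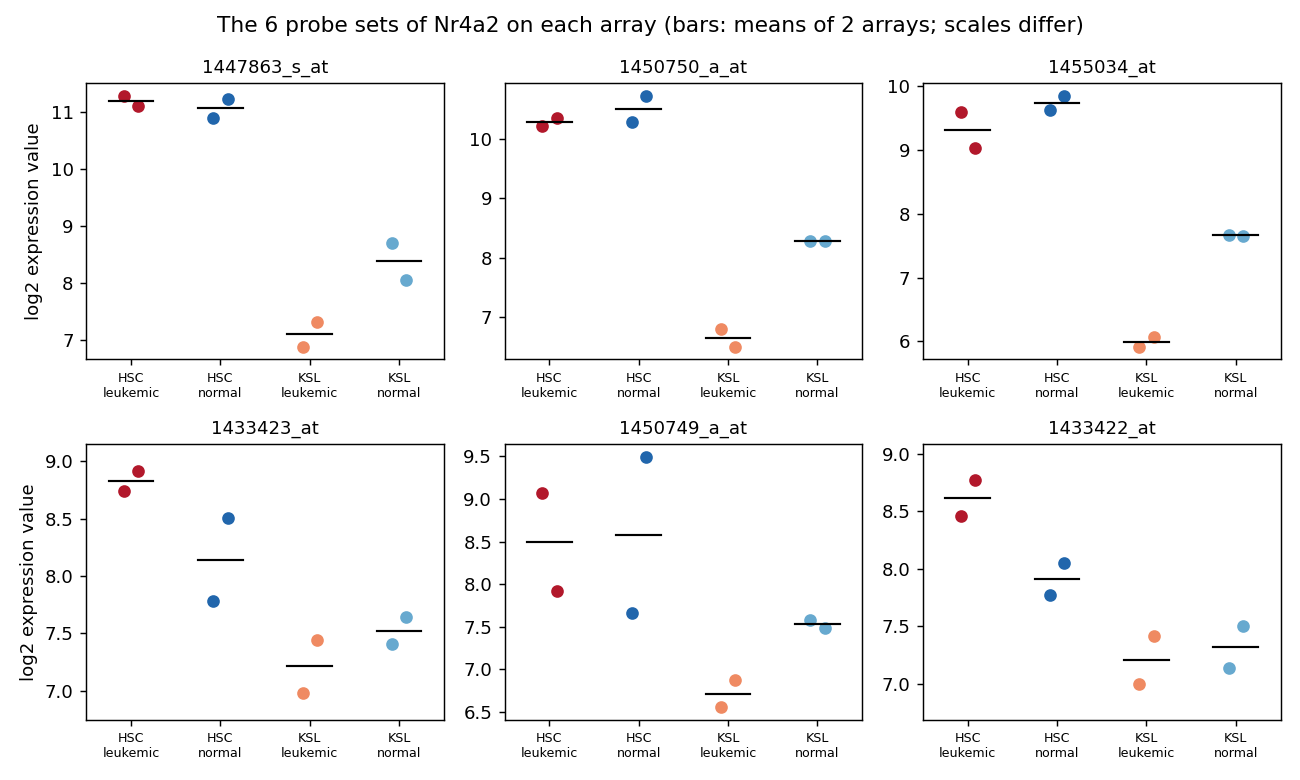
Each panel plots the log2 expression value (y axis, scale set per panel) of 1 of the 6 Nr4a2 probe sets on each array, by group (x axis); points are arrays and bars are means of 2. In all 6 panels the mean in HSC is above the mean in KSL of the same kind of mice, and in the top row both KSL arrays from leukemic mice lie below both KSL arrays from normal mice.

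Nr4a3, which encodes NOR1, lay near the array median. It read 6.22 and 5.86 in HSC from leukemic mice, against 6.66 and 6.14 in HSC from normal mice. In KSL it read 5.51 and 5.66 in leukemic mice against 6.14 and 6.02 in normal mice. The KSL arrays did not overlap and the HSC arrays did. The KSL difference was -0.50 ± 0.22 (adjusted p = 0.717) and the HSC difference -0.36 ± 0.22 (adjusted p = 0.558), with HSC minus KSL at 0.46 ± 0.22 in leukemic (adjusted p = 0.302) and 0.32 ± 0.22 in normal mice (adjusted p = 0.572). Its second probe set was at 5.27 or less on every array, and the third was at the floor on 7 of 8 arrays. Whether its step between HSC and KSL differs from that of the other 2 receptors was not tested.

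Promoter windows of 250 bases before the gene start were read from RefSeq (GRCm38.p6) for 5 of the 8 genes, and the 4 that hold binding letters of the early-response factors are shown so that the receptors can be set beside Egr2. Capitals mark TGACG on either strand (CGTCA on the other), the short form of the CREB element, and the CArG box bound by SRF, which appears here as a 10-letter match in Egr2. The windows are Nr4a1 at chr15:101266596-101266845 on the plus strand, which lies inside the span of longer transcripts of the gene, Nr4a2 at chr2:57124004-57124253 on the minus strand, Nr4a3 at chr4:48045055-48045304 on the plus strand, and Egr2 at chr10:67537619-67537868 on the plus strand, 1 of 5 starts listed for that gene.
Nr4a1: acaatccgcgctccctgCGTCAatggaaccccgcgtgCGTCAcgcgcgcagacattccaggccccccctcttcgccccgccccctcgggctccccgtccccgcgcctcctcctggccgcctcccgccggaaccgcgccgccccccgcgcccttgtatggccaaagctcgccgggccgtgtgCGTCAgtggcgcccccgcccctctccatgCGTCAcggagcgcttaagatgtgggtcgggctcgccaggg
Nr4a2: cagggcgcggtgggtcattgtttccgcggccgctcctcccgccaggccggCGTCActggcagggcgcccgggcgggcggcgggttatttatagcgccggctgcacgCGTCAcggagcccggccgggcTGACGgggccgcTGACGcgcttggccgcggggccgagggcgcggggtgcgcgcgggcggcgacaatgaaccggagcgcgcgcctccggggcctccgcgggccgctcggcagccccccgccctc
Nr4a3: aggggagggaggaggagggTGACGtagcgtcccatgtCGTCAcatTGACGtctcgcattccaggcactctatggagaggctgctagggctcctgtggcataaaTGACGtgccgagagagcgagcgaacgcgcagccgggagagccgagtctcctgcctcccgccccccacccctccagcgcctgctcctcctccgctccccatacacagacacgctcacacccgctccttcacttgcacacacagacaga
Egr2: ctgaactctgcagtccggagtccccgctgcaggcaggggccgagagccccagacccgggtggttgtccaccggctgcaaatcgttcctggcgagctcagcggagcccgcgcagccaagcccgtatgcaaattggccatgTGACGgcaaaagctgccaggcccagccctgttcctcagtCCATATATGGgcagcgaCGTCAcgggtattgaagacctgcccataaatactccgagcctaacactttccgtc
Each of the 3 receptor windows holds 4 such sites, a number reached by 0.137% of the 32851 windows of that length. In Nr4a1 all 4 are part of TGACGCA on either strand, found at least once in 1.75% of windows, and Nr4a1 is the only 1 of the 32851 with 3 or more. The Egr2 window holds 2 of them and 1 CArG box, which 1.47% of windows hold. Of the other 4 Egr2 starts, the windows of 2 overlap the one shown and hold the same number, 1 holds the CArG box and 0 TGACG sites, and 1 holds none of the motifs. The full CREB element TGACGTCA, the NR4A monomer site AAAGGTCA and the EGR site GCGTGGGCG, each searched on both strands, were in none of these 4 windows, and the Ier3 window held none of the 6 motifs. Overlapping matches were counted separately. The part of these sites in the levels of the 3 receptor genes was not tested.

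Egr1, the most studied EGR factor, read 12.21 and 11.98 in HSC from leukemic mice against 12.13 and 11.87 in HSC from normal mice. In KSL it read 10.07 and 9.46 in leukemic mice against 11.46 and 11.0 in normal mice. HSC arrays overlapped between leukemic and normal mice, KSL arrays did not, and every KSL array lay below every HSC array. The KSL difference was -1.46 ± 0.28 (adjusted p = 0.277), rank 68 from the lowest of all genes, and the HSC difference was 0.10 ± 0.28 (adjusted p = 0.977, 95% interval -0.63 to 0.82). HSC exceeded KSL by 2.33 ± 0.28 in leukemic mice (adjusted p = 0.0242), a 5.03-fold difference. In normal mice the difference was 0.77 ± 0.28 (adjusted p = 0.285).

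Egr2 and Egr3, which act in lymphocytes and in Schwann or muscle spindle cells, did not pass in any comparison with these probe sets. Egr2 read 4.22 and 5.01 in HSC from leukemic mice, against 6.50 and 4.49 in HSC from normal mice. In KSL it read 5.55 and 5.29 in leukemic mice against 5.42 and 5.00 in normal mice. These values lie below the array median except on 1 array, replicate 1 of HSC from normal mice, and that replicate pair was the widest of the 8 genes (SD 1.42), so no order of the groups can be read. Egr3 read 7.64 and 7.70 in HSC from leukemic mice against 7.21 and 7.85 in HSC from normal mice, and 6.76 and 7.12 in KSL from leukemic mice against 7.04 and 7.18 in KSL from normal mice. Leukemic and normal arrays overlapped in both cell fractions. HSC minus KSL for Egr3 was 0.73 ± 0.25 in leukemic mice (adjusted p = 0.180) and 0.42 ± 0.25 in normal mice (adjusted p = 0.512). Its second probe set gave 1.49 for HSC minus KSL in leukemic mice, and with the mean of both probe sets Egr3 passed there (1.11, adjusted p = 0.0159). The second probe set gave -1.21 for KSL from leukemic minus normal mice where the first gave -0.17. That probe set lay at 4.35 and 3.42 in KSL from leukemic mice, near the floor, against 5.32 and 4.87 in KSL from normal mice.

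Ier2 read 9.90 and 9.70 in HSC from leukemic mice, against 10.40 and 9.96 in HSC from normal mice. In KSL it read 9.21 and 9.03 in leukemic mice against 9.60 and 9.52 in normal mice. Both leukemic groups lay below their normal counterparts without overlap, by -0.38 ± 0.17 in HSC (adjusted p = 0.436) and -0.44 ± 0.17 in KSL (adjusted p = 0.647). Ier3 read 10.57 and 10.66 in HSC from leukemic mice against 10.69 and 10.02 in HSC from normal mice, and 9.51 and 9.61 in KSL from leukemic mice against 10.17 and 9.95 in KSL from normal mice. The KSL arrays of Ier3 did not overlap (-0.50 ± 0.24, adjusted p = 0.764) and the HSC arrays did (0.26 ± 0.24, adjusted p = 0.711). HSC minus KSL in leukemic mice was 1.05 ± 0.24 for Ier3 (adjusted p = 0.0830) and 0.68 ± 0.17 for Ier2 (adjusted p = 0.106). Neither gene passed there, and the differences in normal mice were 0.30 for Ier3 and 0.62 for Ier2.

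**Figure D3:**
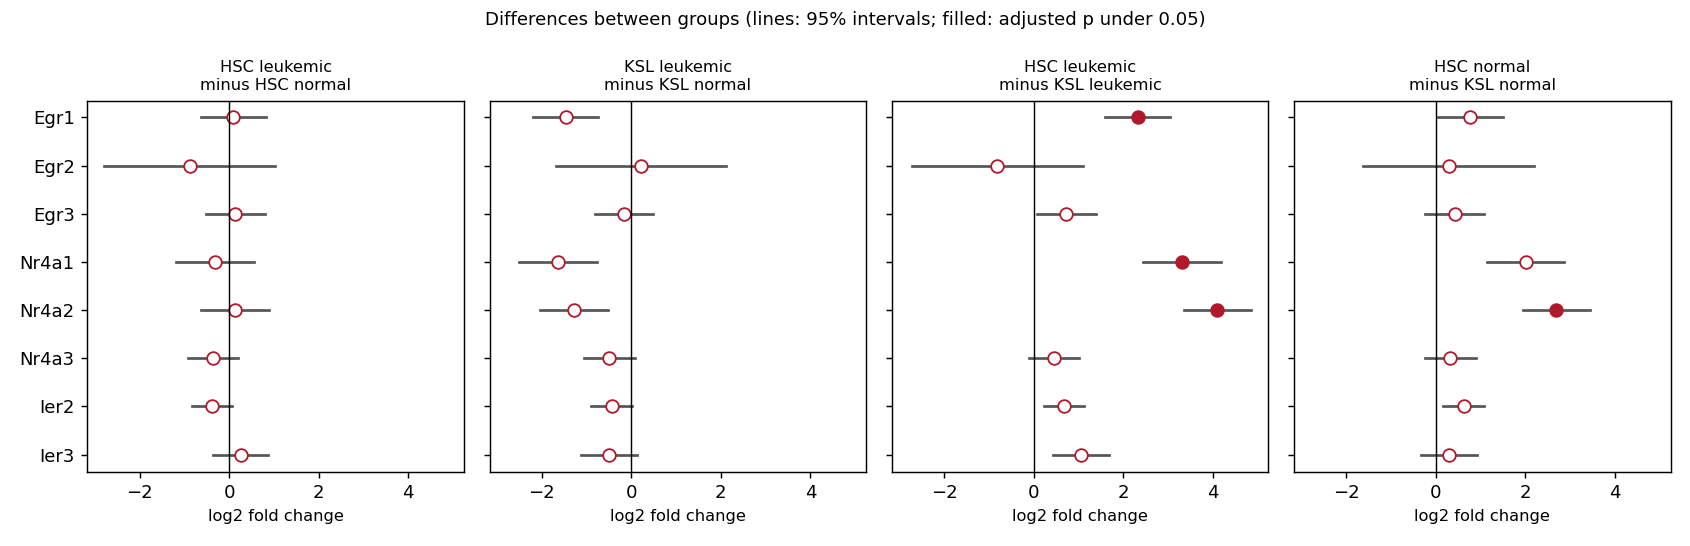
Each panel plots, for 1 comparison, the log2 fold change (x axis) of the 8 genes (y axis); lines are 95% intervals of the fit and filled points have an adjusted p under 0.05. Filled points stand for Egr1, Nr4a1 and Nr4a2 in HSC leukemic minus KSL leukemic, at 2.33, 3.32 and 4.11, and for Nr4a2 in HSC normal minus KSL normal, at 2.69.

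The comparison of KSL from leukemic with KSL from normal mice asks how progenitors that shared the marrow with leukemic cells differ from those of control chimeras. The log2 fold change was negative for 7 of the 8 genes with a median of -0.50, against a median of 0.00 over all genes. None passed the adjusted test, which 0.0275% of all genes passed in the lower and 0.0165% in the higher direction. At an unadjusted p under 0.05, Egr1, Nr4a1 and Nr4a2 were lower, 3 of 8 genes against 4.45% of all genes, and 0 were higher, against 3.5%. The arrays of the groups did not overlap for 6 of 8, all lower, against 24.1% of all genes. The unadjusted count was 6 of 8 when either array of HSC from normal mice was left out. Without the 2 male-pattern arrays the log2 fold changes were -1.23 for Egr1, -1.31 for Nr4a1 and -0.96 for Nr4a2 (adjusted p = 0.495, 0.297 and 0.469).

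Markers of other cell states differed between the same KSL arrays. The summed linear level of 7 long-term HSC markers was between 625 and 743 in KSL from leukemic mice, against 1242 and 1412 in KSL from normal mice, with 6 of 7 lower and 0 at the floor on all arrays. For 7 markers of multipotent and lymphoid-primed progenitors it was between 2544 and 2641 in leukemic against 5418 and 7097 in normal mice, with 7 of 7 lower. For 8 markers of mast cells, basophils and eosinophils it was between 5778 and 5945 in leukemic against 2641 and 4107 in normal mice, with 8 of 8 higher. For 5 megakaryocyte markers it was between 1116 and 1375 in leukemic against 2082 and 3575 in normal mice, with 5 of 5 lower, and for 4 erythroid markers between 242 and 433 against 727 and 2457, with 3 of 4 lower. Macrophage markers were also lower as a sum, at 1863 to 1918 in leukemic against 2089 to 2799 in normal mice, with 5 of 8 lower. The sums were higher in leukemic mice for 8 granulocyte-monocyte progenitor markers, at 43265 to 46124 in leukemic against 33098 to 37055 in normal mice with 6 of 8 higher, and for 9 markers of neutrophils and monocytes, at 6586 to 9775 against 3899 to 5576 with 8 of 9 higher. For 4 genes of the sort gate the sum was between 2895 and 3158 in leukemic against 3454 and 3587 in normal mice, with 4 of 4 lower. The sums of B cell and of T and NK cell markers overlapped. The summed level of the 8 immediate-early genes was between 2554 and 2854 in leukemic against 4631 and 5984 in normal mice. Fewer cells of a type in the KSL gate and less RNA per cell cannot be told apart in such bulk samples, and the part of these markers in the result was not tested. In HSC the long-term HSC markers summed to 3447 to 4091 in leukemic against 5504 to 5938 in normal mice, with 7 of 7 lower. The summed level of the 8 genes in HSC overlapped, at 10538 to 11417 in leukemic and 9940 to 12108 in normal mice. A link between these sums was not tested.

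Heat shock genes, which cells switch on under heat, handling or misfolded protein, were measured beside them. Hspa1a and Hspa1b, near-identical neighbouring genes of the inducible HSP70 chaperone whose probes may read each other's RNA, separated leukemic from normal mice. In KSL, Hspa1a was at the floor on both arrays from leukemic mice against 9.76 and 7.60 in normal mice, and Hspa1b was at 4.31 and 3.80 against 11.3 and 9.18. In HSC both genes were at the floor on both arrays from leukemic mice, against 6.25 and 5.86 for Hspa1a and 8.53 and 6.76 for Hspa1b in normal mice. The groups were thus far apart in both cell fractions, with a p that missed the adjusted threshold in KSL (0.215 and 0.225) and in HSC (0.234 and 0.190). Without KSL normal 2, Hspa1a passed in KSL (0.0313). The list as a whole did not move 1 way in KSL, with 5 of 9 measured genes higher in leukemic mice and a median of 0.05, and in HSC 8 of 9 were lower with a median of -0.50. Dnajb1, an HSP40 co-chaperone, had a log2 fold change of -0.77 ± 0.22 in KSL (adjusted p = 0.510) and -0.07 ± 0.22 in HSC (adjusted p = 0.990). Hspa1a and Hspa1b were thus lower in leukemic mice in HSC and in KSL. The part of the heat shock genes in the result was not tested.

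**Figure D4:**
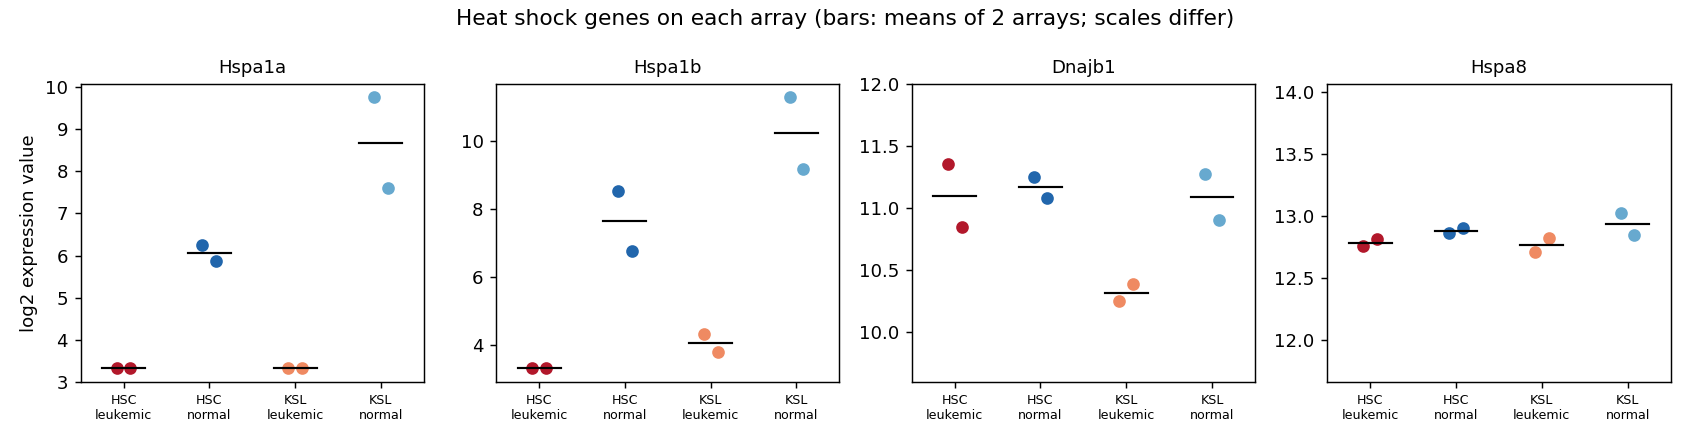
Each panel plots the log2 expression value (y axis, scale set per gene) of 1 heat shock gene on each array, by group (x axis); points are arrays and bars are means of 2. Hspa1a is at the floor of 3.32 on all 4 arrays from leukemic mice and at 5.86 or more on all 4 from normal mice.

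In HSC from leukemic against normal mice the 8 genes split evenly, 4 positive and 4 negative, with a median of -0.11 against 0.00 over all genes. None passed, against 0.0605% of all genes higher and 0.0385% lower, and 0 had an unadjusted p under 0.05, against 6.54% higher and 7.23% lower. The arrays did not overlap for Ier2 alone, lower in leukemic mice, against 16.7% of all genes lower and 16% higher without overlap. The summed level of 8 granulocyte-monocyte progenitor markers was between 4833 and 7293 in HSC from leukemic against 1932 and 2454 in HSC from normal mice. Of these markers 8 of 8 were higher and 0 were at the floor on all arrays. For 9 neutrophil and monocyte markers it was 13556 to 19403 in leukemic against 580 to 10165 in normal mice, with 8 of 9 higher. For 4 erythroid markers it overlapped, at 703 to 1093 in leukemic and 580 to 4840 in normal mice, with 4 of 4 lower by mean. On both of these sums the 2 arrays of HSC from normal mice lay far apart. Mast cell, basophil and eosinophil markers summed to 236 to 384 in HSC from leukemic against 178 to 198 in normal mice, with 7 of 8 higher. T and NK cell markers summed to 873 to 939 against 519 to 802, with 3 of 4 higher. The sums of macrophage, megakaryocyte, B cell, sort gate and multipotent or lymphoid-primed progenitor markers overlapped. The 3 prime minus 5 prime difference of the control probes for Tfrc, a reading of RNA integrity, was -0.36 and -0.75 in HSC from leukemic against -2.04 and -1.74 in HSC from normal mice, and -1.65 and -1.68 in KSL from leukemic against -1.28 and -1.58 in KSL from normal mice. The same difference for Actb was -0.42 and -0.50 in HSC from leukemic against -0.37 and -0.38 in HSC from normal mice, and for Gapdh 1.19 and 1.03 against 0.78 and 0.83. In KSL it was -0.53 and -0.53 in leukemic against -0.48 and -0.48 in normal mice for Actb, and 0.73 and 0.75 against 0.89 and 0.74 for Gapdh. The part of the markers or of these readings in the results was not tested.

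Whether the response to leukemic marrow differed between HSC and KSL was tested as an interaction, in which the difference in KSL is taken from that in HSC. It was 1.56 ± 0.39 for Egr1 (adjusted p = 0.388), 1.41 ± 0.41 for Nr4a2 (adjusted p = 0.435) and 1.31 ± 0.47 for Nr4a1 (adjusted p = 0.508). These 3 had an unadjusted p under 0.05 with a positive sign, 3 of 8 against 4.81% of all genes, and 0 were negative, against 4.28%. None of the 8 passed after adjustment, as 0% of all genes did in that direction and 0.0055% in the other. A KSL response that differs from the HSC response was therefore not shown for any of them.

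Set side by side within leukemic mice, HSC exceeded KSL for 7 of the 8 genes, and the arrays of these 7 did not overlap, against 28.2% of all genes. Egr1, Nr4a1 and Nr4a2 passed, 3 of 8, against 3.13% of all genes higher and 2.74% lower. At an unadjusted p under 0.05, 6 of 8 were higher and 0 lower, against 12.7% and 10.3% of all genes. Egr2 ran the other way, at -0.81 ± 0.72 (adjusted p = 0.591), also without overlap, against 23.2% of all genes that were lower without overlap. In normal mice HSC minus KSL was positive for 8 of 8 with 6 higher and 0 lower without overlap, against 24.2% and 19.3% of all genes, and Nr4a2 passed alone, 1 of 8 against 0.803% of all genes higher and 1% lower. At an unadjusted p under 0.05, 4 of 8 were higher and 0 lower, against 8.86% and 7.36% of all genes. The leukemic comparison uses the KSL arrays from leukemic mice in which these genes were lowest, so it and the comparison of KSL between mice share those arrays. The 3 calls in leukemic mice did not hold without KSL leukemic 1 or KSL leukemic 2, which leaves 1 KSL array from leukemic mice. Without KSL leukemic 1 the calls over all genes were lost as well, so this loss does not single out the 3 genes. With 1 array left out, the Egr1 log2 fold change in leukemic mice ran from 2.0 to 2.6. Nr4a1 ran from 3.2 to 3.4 and Nr4a2 from 3.9 to 4.3. The Nr4a2 call in normal mice was lost when any 1 of the 8 arrays was left out, with log2 fold changes of 2.4 to 3.0. The Egr1 call in leukemic mice also ended without HSC leukemic 1 (0.0588), HSC leukemic 2 (0.0536), KSL normal 1 or KSL normal 2 (0.0527 each), and Ier3 passed without HSC normal 1 or HSC normal 2 (0.0294 each). Without both male-pattern arrays, Nr4a1 alone passed in leukemic mice (0.0491), with Nr4a2 at 0.0566 and Egr1 at 0.0925, and Nr4a2 in normal mice was at 3.19 (0.117).

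Other immediate-early genes, a list of 39 with 37 measured, are described by their counts, since they belong to the same early wave. In KSL from leukemic minus normal mice 30 of 37 were negative with a median of -0.41, 21 were lower without overlap, against 24.1% of all genes, and 0 passed. At an unadjusted p under 0.05, 12 were lower and 1 was higher, against 4.45% and 3.5% of all genes. The smallest p belonged to Dusp1, which encodes a phosphatase that switches off MAP kinases (-0.58 ± 0.04, adjusted p = 0.0993), and to the AP-1 gene Jun (-0.79 ± 0.10, adjusted p = 0.215). In HSC the median was 0.07 and 21 of 37 were positive. There 1 gene passed, against 0.0605% of all genes higher and 0.0385% lower. It was the AP-1 family gene Fosl2, which rose by 1.47 ± 0.06 (adjusted p = 0.0219). Fosl2 was at 8.07 and 8.15 in HSC from leukemic mice against 6.65 and 6.64 in HSC from normal mice. In the interaction 0 of 37 passed and 12 had an unadjusted p under 0.05, all positive, against 4.81% of all genes, among them Fosl2 (1.47 ± 0.09, adjusted p = 0.0894) and Fosb (1.16 ± 0.23, adjusted p = 0.313). In leukemic mice 31 of 37 were higher in HSC than in KSL. Without overlap, 27 were higher and 4 lower, against 28.2% and 23.2% of all genes. After adjustment 11 passed as higher and 0 as lower, against 3.13% and 2.74% of all genes. Those that passed include Dusp1 by 0.70 ± 0.04 (adjusted p = 0.00911), Fosl2 by 0.85 ± 0.06 (0.0114), Jund by 1.44 ± 0.12 (0.0120) and Jun by 1.09 ± 0.10 (0.0141). In normal mice 22 of 37 were higher in HSC than in KSL, with a median of 0.23 against 0.70 in leukemic mice. Without overlap, 14 were higher and 7 lower, against 24.2% and 19.3% of all genes. At an unadjusted p under 0.05, 9 were higher and 4 lower, against 8.86% and 7.36%. After adjustment 1 passed in each direction, against 0.803% of all genes higher and 1% lower. Dusp1 was higher in HSC by 0.47 ± 0.04 (adjusted p = 0.0258) and Fosl2 was lower, at -0.62 ± 0.06 (adjusted p = 0.0305). None of the 11 calls in leukemic mice held without KSL leukemic 1 or KSL leukemic 2, which leaves 1 KSL array from leukemic mice. Without KSL leukemic 1 the calls over all genes were lost as well, so this loss does not single out the list. Over the left-out arrays, Dusp1 ran from 0.66 to 0.74, Jun from 1.01 to 1.16 and Jund from 1.33 to 1.54. Some of the 11 calls also ended without HSC leukemic 2, KSL normal 1 or KSL normal 2, and most without both male-pattern arrays. The Fosl2 call in HSC ended without HSC normal 2 or any 1 KSL array, with log2 fold changes of 1.42 to 1.51 over the left-out arrays. Without KSL leukemic 1 the calls over all genes in HSC were lost as well. With the mean of all Fosl2 probe sets, the Fosl2 difference in HSC was 0.77 (0.251). With that mean, the Fosl2 difference between HSC and KSL in normal mice turned to 0.31 (0.566). Without both male-pattern arrays the adjusted p of Fosl2 in HSC was 0.102. In normal mice the Dusp1 and Fosl2 calls ended without any 1 array from normal mice and without KSL leukemic 1 or KSL leukemic 2. With 1 array left out, the log2 fold changes ran from 0.45 to 0.49 for Dusp1 and from -0.70 to -0.54 for Fosl2.

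**Figure D5:**
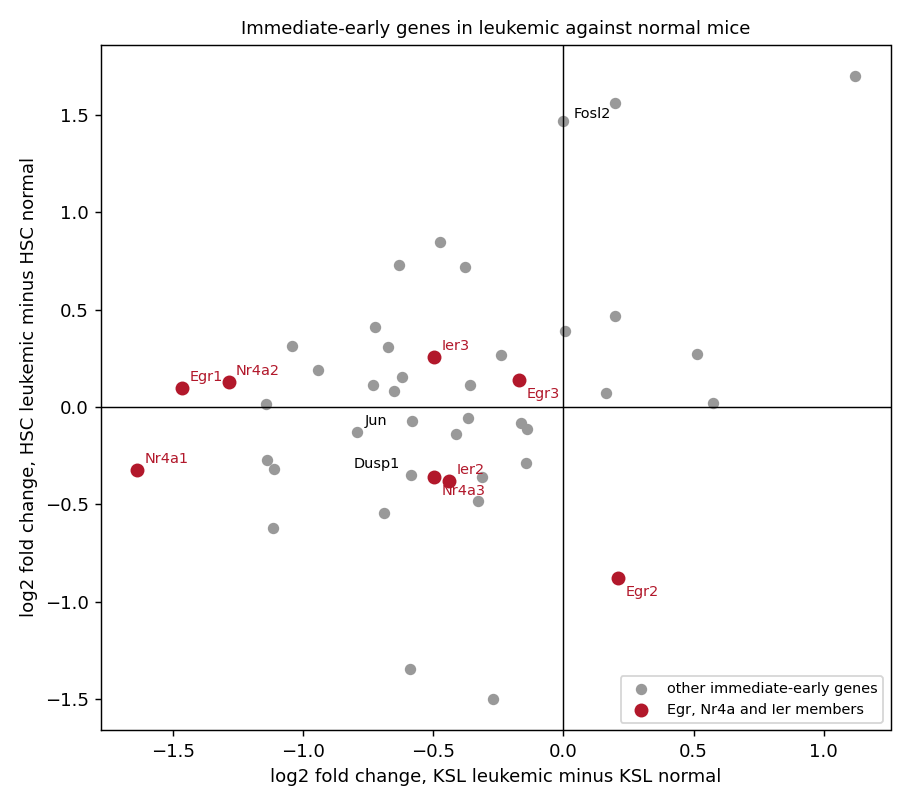
The plot sets the log2 fold change of HSC leukemic minus HSC normal (y axis) against that of KSL leukemic minus KSL normal (x axis); red points are the 8 genes described here and grey points the 37 other immediate-early genes. Nr4a1, Egr1 and Nr4a2 lie farthest to the left, at -1.64, -1.46 and -1.28, with y values between -0.32 and 0.13.

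Of 7 measured family members and partners (Egr4, the EGR co-repressors Nab1 and Nab2, the NR4A partners Rxra and Rxrb, Ncoa2 and Fhl2), 0 passed between leukemic and normal mice in HSC or KSL. Of all genes, at most 0.0605% passed there in either direction. The smallest p in KSL belonged to Ncoa2 (-0.37 ± 0.13, adjusted p = 0.595) and Rxrb (-0.41 ± 0.20, 0.779), and in HSC to Ncoa2 (-0.41 ± 0.13, 0.291) and Nab1 (0.63 ± 0.20, 0.30). Nab2, itself an EGR target that feeds back on EGR activity, was higher in HSC than in KSL from leukemic mice by 1.12 ± 0.18 (adjusted p = 0.0408). It read 8.58 and 8.98 in HSC from leukemic mice and 7.73 and 7.60 in KSL from leukemic mice, without overlap. The call ended without KSL leukemic 1, KSL leukemic 2, HSC leukemic 2 or any 1 array from normal mice. Over the left-out arrays the log2 fold changes of Nab2 were 0.92 to 1.32. Without KSL leukemic 1 the calls over all genes in leukemic mice were lost as well. In normal mice the same difference was 0.74 ± 0.18 (adjusted p = 0.145). Of 12 measured regulators of early transcription, among them Srf, the Elk factors, Creb1 and the Mef2 genes, 0 passed in any of the 5 comparisons. Of all genes, at most 3.13% passed in either direction of any comparison, so 0 of 12 says little about these regulators. Srf had a log2 fold change of 0.33 ± 0.31 in KSL and 0.16 ± 0.31 in HSC from leukemic minus normal mice, and the smallest p in HSC belonged to Elk4 (0.39 ± 0.07, adjusted p = 0.168). In KSL it belonged to Elk3 (-0.37, adjusted p = 0.734).

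Genes listed as EGR or NR4A targets in other cells were described by the same counts. Of 9 measured EGR targets that are not among the 8 genes, 9 were positive in HSC from leukemic minus normal mice with a median of 0.69, 4 of them at an unadjusted p under 0.05, against 6.54% of all genes, and 0 passed. The smallest p belonged to Tnfsf10, which encodes the death ligand TRAIL (1.59 ± 0.35, adjusted p = 0.197), and to Id3, an inhibitor of E proteins (1.33 ± 0.33, adjusted p = 0.221). In KSL 6 of 9 were negative with a median of -0.17 and 0 passed. Between HSC and KSL from leukemic mice 2 passed, both higher in HSC, against 3.13% of all genes higher and 2.74% lower. They were Nab2 and the membrane protease gene Mmp14 (3.13 ± 0.38, adjusted p = 0.0250). The Mmp14 call ended without any 1 array from leukemic mice, with log2 fold changes of 3.02 to 3.25 over the left-out arrays. With the mean of its probe sets Mmp14 was at 2.01 (0.0211). Of 11 genes linked to NR4A receptors, 9 were positive in HSC from leukemic minus normal mice, with a median of 0.38. At an unadjusted p under 0.05, 3 were higher and 2 lower there, against 6.54% and 7.23% of all genes. In KSL 7 were negative with a median of -0.22, and at that p 4 were lower and 1 higher, against 4.45% and 3.5%. Of these 11 genes 0 passed between leukemic and normal mice. Among them Cdkn1b, which encodes the cell cycle inhibitor p27, had 0.44 ± 0.10 in HSC (adjusted p = 0.211), -0.67 ± 0.10 in KSL (adjusted p = 0.225) and an interaction of 1.11 ± 0.15 (adjusted p = 0.211). Tox, a chromatin factor of T cells, was negative in both, at -1.08 ± 0.13 in HSC (adjusted p = 0.101) and -0.97 ± 0.13 in KSL (adjusted p = 0.215). Between the cell fractions, 9 of the 11 were lower in HSC in normal mice (median -0.66) and 5 in leukemic mice (median 0.03). At an unadjusted p under 0.05, 7 were lower and 1 higher in normal mice, against 7.36% and 8.86% of all genes. In leukemic mice 4 were lower and 3 higher, against 10.3% and 12.7%. Tox was higher in HSC than in KSL by 0.91 ± 0.13 in leukemic mice (adjusted p = 0.0349) and 1.02 ± 0.13 in normal mice (0.0451). The chromatin organiser gene Satb1 was lower in HSC, at -0.68 ± 0.07 in leukemic mice (adjusted p = 0.0184) and -0.67 ± 0.07 in normal mice (0.0305). With the mean of all probe sets Satb1 was at -2.67 in leukemic mice (0.0226) and -3.33 in normal mice (0.0216), so its size is not settled. With that mean Tox was at 0.65 in leukemic mice (0.185) and 0.52 in normal mice (0.352), and neither passed. The Tox call in leukemic mice also ended without HSC leukemic 1 (0.0626), HSC leukemic 2 (0.0818) or 1 KSL normal array (0.0760), and that in normal mice without any 1 of the 8 arrays (0.0667 to 0.181). Gzmb, which encodes the protease granzyme B, was lower in HSC from leukemic mice than in KSL, at -2.75 (adjusted p = 0.0366). Without KSL leukemic 1 or KSL leukemic 2, none of the Tox, Satb1 and Gzmb calls held, in leukemic or in normal mice. Calls over all genes in leukemic mice were lost without KSL leukemic 1 as well, so the loss there does not single out these genes. The Gzmb call also ended without any 1 HSC array, with log2 fold changes of -2.98 to -2.52 over the left-out arrays. The Satb1 call in leukemic mice also ended without 1 KSL normal array. That in normal mice also ended without any 1 array from normal mice.

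The genes whose log2 values over the 8 arrays were most like those of Egr1, among 6801 genes with a mean over 6 and an SD over 0.3, were Usp19 (Pearson r = 0.993), Prdm16 (0.987), Treml2 (0.983), Ripor2 (0.983) and Rnf150 (0.981). For Nr4a1 they were Vamp5 (0.994), Plxnc1 (0.991), Cavin1 (0.990), Lzts2 (0.988) and Prdm16 (0.987). The 8 arrays fall into groups and share the step between HSC and KSL, so these values describe likeness only. Prdm16, a transcription factor gene of stem cells and on both lists, averaged 8.62 in HSC from leukemic, 8.78 in HSC from normal, 5.26 in KSL from leukemic and 7.13 in KSL from normal mice.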

How the data were processed

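RNA of the sorted cells was hybridised to 8 Affymetrix mouse arrays. The authors deposited log2 values for 45101 probe sets, made with RMA per the submitters' processing notes. No version or further step is stated there. Between 14.9% and 15.8% of probe sets per array lay at 10 on the linear scale, a floor. The sources differ on the amplification kit, which was not settled. For KSL from leukemic mice the titles hold conflicting words, and the disease state decided the group.

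Of the probe sets, 34945 had 1 gene symbol, 932 several and 9160 none, and 64 were controls. All 8 columns were used. A limma 3.58.1 fit (R 4.3.3) with 1 mean per group over all 8 arrays had 4 residual and 0.668 prior degrees of freedom. Its tests were two-sided, p-values were adjusted by Benjamini-Hochberg over 18193 genes, and an adjusted p under 0.05 passed. The fit was tested on simulated data. Errors of log2 fold changes are standard errors, and the small number of arrays limits precision. Counts and plots used Python 3.11.15.

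The 8 genes, lists and tests were chosen with earlier results of these data known. Per list and comparison, up to 4 genes that passed, or the 2 with the smallest p, are named, and the 5 genes most like Egr1 and Nr4a1. Srf, Dnajb1 and the array values of single listed genes were chosen after their values were seen.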

Additional observations from a re-analysis of the deposited data

How the results depend on the processing

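For the comparisons of leukemic with normal mice, in HSC and in KSL, and for their interaction, 0 of the 8 genes passed under all 17, 17 and 16 other settings run. The KSL log2 fold changes stayed negative under 17 of 17 settings for Egr1 (-1.77 to -1.16), Nr4a1 (-1.96 to -1.31) and Nr4a2 (-1.61 to -0.96). For HSC against KSL in leukemic mice, where 3 of the 8 genes passed, the count with 1 array left out ran from 0 to 4, and it was 1 with only the arrays compared and 1 without the male-pattern arrays. For HSC against KSL in normal mice, where 1 passed, it was 0 with any 1 array left out, with array weights, with only the arrays compared, with the mean of all probe sets and without the male-pattern arrays, and 2 with a common median and 2 without genes at the floor. The cause was not tested. In KSL the genes at an unadjusted p under 0.05, 3 as reported, were 6 with array weights and 6 with only the arrays compared. With array weights, 1 of the other immediate-early genes passed in KSL as lower, Dusp1 (0.0322), and 1 as higher. Over all genes 125 passed in KSL in that setting, against 8 as reported.

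With the replicate number as a block, 3 genes passed in leukemic mice and 0 in normal mice, where Nr4a2 had an adjusted p of 0.0911. Over all genes the deviations of same-numbered arrays in different groups correlated at -0.0351 to 0.0873, and the labels state no shared source. Replicate 1 of both normal groups shares the male pattern, however, and 7 of the 8 genes deviated with the same sign in both normal groups, so whether those arrays share a source cannot be told. With the block, Dusp1, Fosl2, Satb1 and Tox also missed in normal mice (0.0792, 0.0727, 0.0881 and 0.107), as did Fosl2 in HSC of leukemic against normal mice (0.111), and Nab2, Mmp14, Satb1, Tox and Gzmb in leukemic mice (0.0743, 0.0527, 0.0530, 0.0766 and 0.0526). Over all genes the number that passed moved widely between settings: 0 to 257 in HSC (18 as reported), 0 to 125 in KSL (8), 0 to 68 for the interaction (1), 0 to 546 between HSC and KSL in normal mice (328) and 0 to 1316 in leukemic mice (1067). With the mean of all its probe sets, Fosl2 turned to 0.31 for HSC minus KSL in normal mice. With 2 arrays a group, large differences can miss the threshold. Nr4a1 at 2.01 for HSC minus KSL in normal mice (adjusted p = 0.0745) missed it. Hspa1b at -6.18 for KSL from leukemic minus normal mice (adjusted p = 0.225) missed it as well. Values near the floor have no order.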
